A study of Drosophila melanogaster with 4 samples.

Results

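Peaks of the nuclear receptor Eip78C were examined at the nuclear genes of the respiratory chain and of ATP synthase in whole Drosophila melanogaster. Members were the protein-coding genes of the Ensembl annotation of the dm6 genome whose symbols begin with ND-, SdhA to SdhD, UQCR-, COX and a digit, or ATPsyn. The rule gave 87 of 13968 protein-coding genes, with 40 in complex I, 7 in complex II, 9 in complex III, 16 in complex IV and 15 in complex V. Of these, 63 were subunit genes and 24 were paralogs, taken as symbols that end in L or in L and a digit, apart from ND-MNLL.

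Chromatin immunoprecipitation and sequencing (ChIP-seq) was done with an anti-GFP antibody on 4 biological replicates, which form 1 group. The animals were a transgenic line that stably expressed Eip78C with GFP fused to its C-terminus, collected as white prepupae with males and females pooled. The labels do not give the promoter of the tagged copy or its place in the genome, and neither untagged animals nor input chromatin were analysed here, so the peaks have no background of their own to be set against. The relaxed list of every replicate, and that of the pooled replicates, held 30000 peaks, and 8282 peaks made up the optimal list, the joint list kept after a test of reproducible ranks. The lists give no read counts, so the depth behind them is unknown.

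The respiratory chain passes electrons from NADH through complex I, or from succinate through complex II, to ubiquinone, and then through complex III, cytochrome c and complex IV to oxygen. Complexes I, III and IV pump protons across the inner mitochondrial membrane, and ATP synthase (complex V) lets them return while it makes ATP. Most subunits of the complexes are encoded in the nucleus, and Drosophila carries paralogs of many of these genes, a number of which are known to be expressed in the testis. Eip78C belongs to the Rev-erb family of nuclear receptors, and its gene responds to the moulting hormone ecdysone, and the white prepupa stage marks the start of metamorphosis.

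The sequences on which the description turns come first. Each promoter below belongs to a member with one of the strongest peaks of its complex, and spans 150 bases before the gene's start and 30 bases from it onward. It is given 5′ to 3′ on the strand of the gene, from the Release 6 (dm6) genome of RefSeq. Capitals mark a match to any of 7 motifs that are spelled out further on. Only the COX5B window held one, the core promoter element Motif 1. At most 2 are given for a complex. ND-MWFE, whose peak was stronger than that of ND-75, is not shown, and neither is COX5A, whose window lies mostly in untranslated sequence.
ND-ASHI promoter (chrX:6679089-6679268, minus strand): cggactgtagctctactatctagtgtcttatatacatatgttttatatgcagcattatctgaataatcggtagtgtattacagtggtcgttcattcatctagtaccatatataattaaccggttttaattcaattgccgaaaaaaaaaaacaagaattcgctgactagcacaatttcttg
ND-75 promoter (chrX:8251658-8251837, minus strand): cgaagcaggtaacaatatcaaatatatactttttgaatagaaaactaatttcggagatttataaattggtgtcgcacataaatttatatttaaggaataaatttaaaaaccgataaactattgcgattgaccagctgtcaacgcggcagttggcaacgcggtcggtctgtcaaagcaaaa
SdhC promoter (chr3R:11209820-11209999, minus strand): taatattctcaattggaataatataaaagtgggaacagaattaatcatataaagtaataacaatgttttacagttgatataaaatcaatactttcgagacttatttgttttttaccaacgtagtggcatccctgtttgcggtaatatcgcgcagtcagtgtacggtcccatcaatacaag
COX5B promoter (chr2L:6557650-6557829, plus strand): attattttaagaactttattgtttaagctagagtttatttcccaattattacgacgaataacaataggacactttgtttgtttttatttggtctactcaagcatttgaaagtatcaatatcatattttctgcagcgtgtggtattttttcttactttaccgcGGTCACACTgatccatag
ATPsynE promoter (chr3R:14326797-14326976, plus strand): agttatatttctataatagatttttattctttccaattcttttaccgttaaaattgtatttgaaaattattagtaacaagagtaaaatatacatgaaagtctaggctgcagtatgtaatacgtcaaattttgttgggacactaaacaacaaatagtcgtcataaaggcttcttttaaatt
ATPsynCF6 promoter (chr3R:23356035-23356214, minus strand): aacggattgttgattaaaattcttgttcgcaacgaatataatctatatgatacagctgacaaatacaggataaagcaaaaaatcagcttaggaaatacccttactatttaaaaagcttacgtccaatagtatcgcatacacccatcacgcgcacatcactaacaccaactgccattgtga

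The strongest peaks did not always lie at those starts, so the 50 bases on either side of the strongest summit of complexes I, IV and V follow, on the plus strand. None of them held a motif searched for.
ND-ASHI summit (chrX:6679313-6679413, plus strand): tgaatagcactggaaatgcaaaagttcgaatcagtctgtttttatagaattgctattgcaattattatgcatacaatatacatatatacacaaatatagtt
COX5B summit (chr2L:6557505-6557605, plus strand): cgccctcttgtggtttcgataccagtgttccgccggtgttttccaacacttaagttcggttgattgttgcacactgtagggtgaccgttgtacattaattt
ATPsynE summit (chr3R:14327852-14327952, plus strand): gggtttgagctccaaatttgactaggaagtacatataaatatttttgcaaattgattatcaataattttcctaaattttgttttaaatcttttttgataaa

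ND-42 and Cchl, the gene of the enzyme that attaches haem to cytochrome c, start back to back on arm 3R. The 228 bases between their starts, chosen for display after the values were seen, hold 1 spelling of the nuclear respiratory gene element, in capitals. The peak counted for ND-42 spans this stretch.
Cchl to ND-42 (chr3R:22027481-22027708, plus strand): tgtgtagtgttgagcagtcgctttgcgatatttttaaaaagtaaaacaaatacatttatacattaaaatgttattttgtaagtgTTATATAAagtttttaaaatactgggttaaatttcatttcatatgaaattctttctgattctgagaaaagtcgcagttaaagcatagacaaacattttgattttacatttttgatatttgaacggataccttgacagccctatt

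Member promoters held Motif 1 more often than promoters in general, by count. Windows of 250 bases before and 50 bases after the 5′-most start of each gene were searched on both strands. Motif 1 (GGTCACACT) stood in 15 of 87 member windows (17.2%, exact 95% interval 9.98% to 26.8%), against 6.04% of all 13968 windows, which lies below that interval. It lay in 14 of the 63 subunit windows (22.2%) and in 1 paralog window. The first base of the match lay between 166 bases before and 33 bases after the start, with a median of 14 bases before it in the members and 8 bases before it in all 843 genes with the motif. In 10 of 15 members (66.7%), against 71.1% of all genes with the motif, it read in the direction of the gene. The match is shown for 12 members with 10 bases on either side, on the strand of the gene, with the spelling AGTGTGACC where it reads against the gene.
ND-13A (chr2L:5100262-5100290, minus strand): ttaaataaccAGTGTGACCgctgatcggt
ND-18 (chrX:19492408-19492436, plus strand): ccgctcgcctGGTCACACTggcactggcg
ND-ACP (chr3L:1329972-1330000, plus strand): ttgcgcatacGGTCACACTgctaccttgc
ND-B17 (chr2L:15751075-15751103, minus strand): ttaagagtgcGGTCACACTggcggcaaca
ND-PDSW (chr2L:3466069-3466097, plus strand): gagcgaagccAGTGTGACCgcagtgtgcc
COX4 (chr2L:19958641-19958669, plus strand): ttcgagatgtGGTCACACTtctctgcatg
COX5A (chr3R:11819313-11819341, plus strand): ttgaagatgcAGTGTGACCgcaattaaat
COX5B (chr2L:6557802-6557830, plus strand): actttaccgcGGTCACACTgatccatagc
COX7AL (chr3R:8343497-8343525, plus strand): gagagcgaatAGTGTGACCtaatttggca
COX7B (chr3L:17425476-17425504, plus strand): acaacacaacGGTCACACTgttcaacaca
ATPsynC (chr3R:31219778-31219806, minus strand): ctactgttatGGTCACACTgcgcctattg
ATPsynD (chr3R:19094884-19094912, plus strand): ggcagctgatAGTGTGACCgacccgaggg

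ND-B14, ND-MWFE and UQCR-6.4 also held Motif 1. Members with Motif 1 had a peak about as often as all genes with it. A summit within 1 kb of a transcription start site (TSS) was found for 4 of the 15 members with the motif (26.7%), against 27.4% of all genes with it. These were COX5A, COX5B, COX7B and ND-MWFE. With or without the motif, 20.7% of the 87 members and 22.0% of all genes had a summit. Whether the motif sets apart the members with a peak was not tested. The motif was absent from the 200 bp around each of the 18 members' strongest summits, and 0.797% of all 8282 optimal summits had it.

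The other motifs were about as frequent in member promoters as in all promoters, although the GAGA motif stood in a single one. The DRE (TATCGATA), bound by the factor Dref, stood in 9 member windows (10.3%, against 9.36% of all), those of COX4, COX7A, ND-15, ND-19, ND-23, ND-B14.5A, ND-B15, ND-MNLL and UQCR-14. The single nuclear receptor motif AGGTCA, which Rev-erb receptors recognise as part of a longer site, stood in 5 (5.75%, against 5.88%). It lay at COX7AL, ND-20, ND-B17, ND-B8 and UQCR-6.4L, none of which had an optimal summit within 1 kb. The longer form known for the receptor ERR (TCAAGGTCA), which contains AGGTCA, was in none of the 87 (a count of 0 allows up to 3.45%) and in 0.122% of all windows. AGGTCA can also share letters with Motif 1.

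The nuclear respiratory gene element (TTACGTAA, TTACATAA or TTATATAA) was in 5 member windows (5.75%, against 5.18%), those of ND-30, ND-42, ND-49, ND-MNLL and ND-SGDH. Of these genes 3 had a summit, but the share of all genes with the element that had one is not given here. The E-box (CACGTG) was in 4 (4.60%, against 4.20%), and GAGAGAG in 1, that of COX7AL2 (1.15%, interval 0.0291% to 6.24%, against 5.86%). A summit was counted for 1 of the 9 members with the DRE, 0 of the 4 with the E-box and the 1 with GAGAGAG. The shares of all genes with these motifs, or with AGGTCA, that had a summit are not given here either. These counts therefore have no background and say nothing about motif and peak. None of the 7 motifs was found in the 200 bp around the 18 member summits. Over all optimal summits the shares were 4.03% for AGGTCA, 0.0845% for its longer form, 1.49% for the DRE, 1.67% for the E-box, 3.67% for GAGAGAG and 4.24% for the respiratory gene element. These matches are letters in a window, not sites that were measured.

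**Figure D1:**
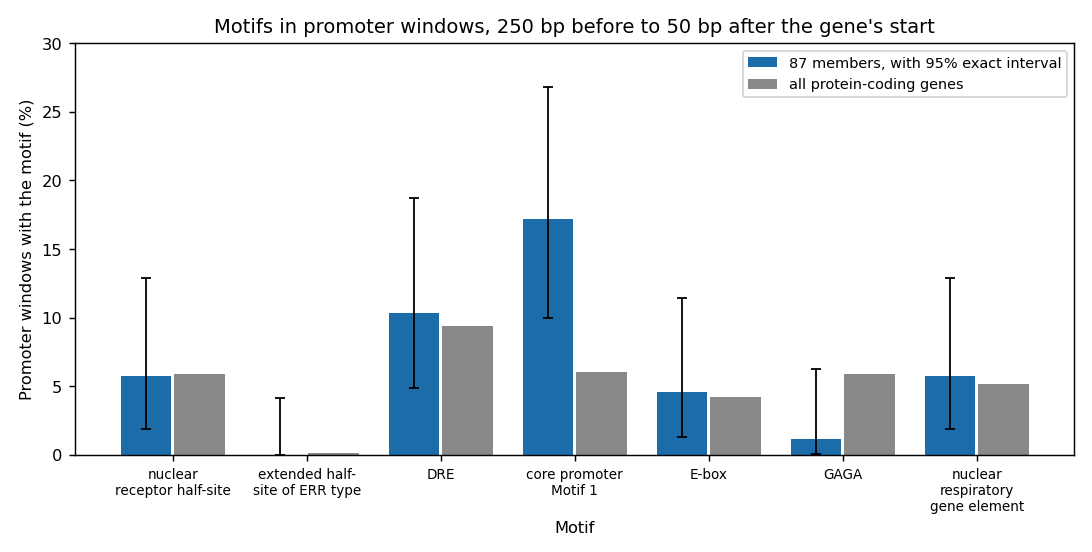
Share of promoter windows (y axis, percent) that hold each of 7 motifs (x axis), with the 87 members in blue beside all protein-coding genes in grey. Bars start at 0 and whiskers are exact 95% intervals for the members, which cover counting error only. Motif 1 stands at 17.2% of members against 6.04% of all genes, and the GAGA motif at 1.15% against 5.86%.

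Respiratory genes had an Eip78C peak at their starts about as often as other genes. Of the 87 members 18 (20.7%, exact 95% interval 12.7% to 30.7%, for counting error only) had an optimal summit within 1 kb of a TSS, and 22.0% of all protein-coding genes had one. The share was higher for subunits than for paralogs by count, although their intervals overlap. A summit was counted for 17 of 63 subunit genes (27.0%, interval 16.6% to 39.7%), and for 1 of 24 paralogs (4.17%, interval 0.105% to 21.1%), COX7AL2. The subunits' interval holds the 22.0% of all genes, and that of the paralogs ends below it.

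By complex, a summit was counted for 10 of 40 genes of complex I (25.0%), 1 of 7 of complex II (14.3%), 0 of 9 of complex III (a count of 0 allows up to 33.3%), 4 of 16 of complex IV (25.0%) and 3 of 15 of complex V (20.0%). Each of these intervals holds the 22.0% of all genes, so no complex could be told apart at these numbers. Among the 7 core subunits of complex I, which take part in electron transfer to ubiquinone, 3 had a summit (42.9%), and among its 27 accessory subunits 7 had one (25.9%).

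In the replicates' own lists members stayed near all genes and paralogs below them. Among the 8282 strongest peaks of replicates 1, 2, 3 and 4, a summit within 1 kb was found for 26.4%, 17.2%, 16.1% and 24.1% of members, against 25.2%, 21.1%, 24.5% and 26.9% of all genes. The mean was 21.0% ± 5.09 for members and 24.4% ± 2.44 for all genes (SD, n = 4). Members were lower than all genes in 3 of 4 replicates, and the difference of −3.45 ± 3.96 percentage points was smaller than its spread.

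Subunit genes had 34.9%, 22.2%, 20.6% and 31.7%, with a difference from all genes of 2.96 ± 5.75 points, also within the spread. Paralogs had 4.17% in each replicate, and their difference of −20.3 ± 2.44 points was larger than the spread and negative in 4 of 4 replicates. The single paralog is the same gene each time, and the replicates share the annotation and its gene spacing, so this spread does not carry the error of having 24 genes.

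**Figure D2:**
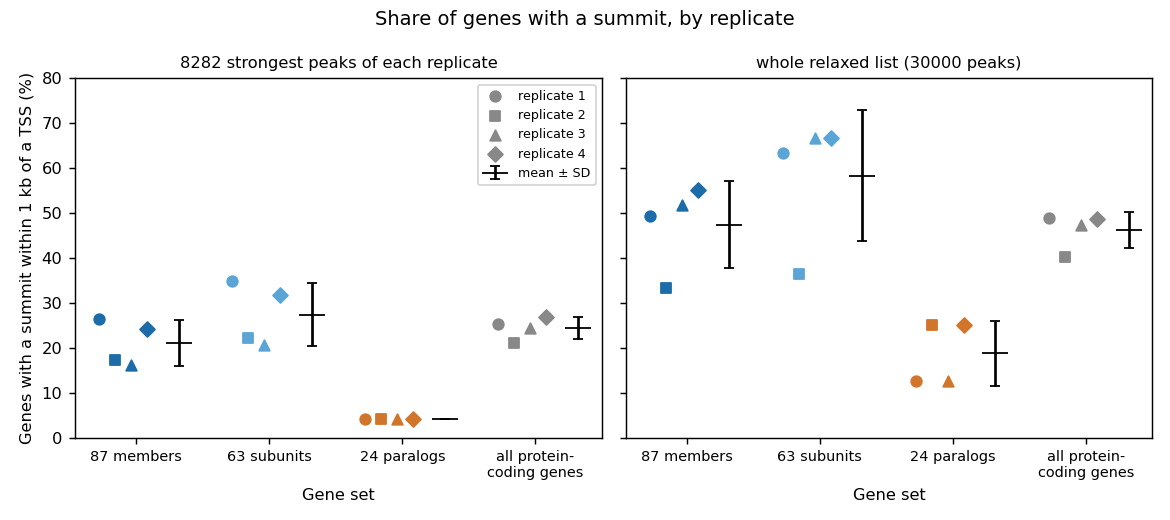
Share of genes with a summit within 1 kb of a TSS (y axis, percent) by gene set (x axis) in each replicate (symbols) with the mean and SD (black), for the 8282 strongest peaks (left) and the whole lists of 30000 peaks (right). Paralogs sit at 4.17% in every replicate on the left, and replicate 2 is the lowest for subunits on the right, at 36.5%.

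Peaks found near members in every replicate were no more common than elsewhere. A summit among the strongest 8282 in all 4 replicates was found for 11 members (12.6%) and 15.2% of all genes, and in at least 1 replicate for 26 members (29.9%) and 34.7% of all genes. Optimal peaks overlapped by one of the strongest peaks of each of the 4 replicates gave 12 members (13.8%) and 14.2% of all genes. The 4141 strongest optimal peaks gave 13 members (14.9%) and 13.5% of all genes.

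Other windows and starts left members near the background, and giving each summit to the nearest TSS alone left them lower by count. A window of 500 bp gave 14 members (16.1%) and 18.1% of all genes, and one of 2 kb gave 25 members (28.7%) and 28.0%. The gene's 5′-most start alone gave 17 members (19.5%) and 19.9%. When each summit was given only to the gene with the nearest TSS, 11 members kept one (12.6%), against 17.3% of all genes.

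The relaxed lists, which include background, reached more subunit genes in 3 of the 4 replicates. In the lists of 30000 peaks of replicates 1, 2, 3 and 4, a summit within 1 kb was listed for 63.5%, 36.5%, 66.7% and 66.7% of subunits, 49.4%, 33.3%, 51.7% and 55.2% of members, and 48.9%, 40.3%, 47.4% and 48.8% of all genes. Replicate 2 stood below the other replicates in these 3 sets, but not for paralogs (12.5%, 25.0%, 12.5% and 25.0%). Only in replicate 2 did subunits fall below all genes. Without replicate 2, the mean was 65.6% ± 1.83 for subunits and 48.3% ± 0.858 for all genes (SD, n = 3). With it, the mean was 58.3% ± 14.6 for subunits and 46.3% ± 4.06 for all genes (SD, n = 4).

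The excess of subunits did not carry over to the list called on the pooled replicates. There, 24 of 63 subunits (38.1%) and 25 of 87 members (28.7%) had a summit, against 38.4% of all genes. Replicate 2 also lacked any peak at 345 of the 8282 optimal peaks (4.17%), where replicates 1, 3 and 4 lacked one at 72, 55 and 25. The part of replicate 2 in the pooled result was not tested. Subunits listed in the other 3 replicates and not in replicate 2 numbered 14 (22.2%), against 9.95% of all genes. For each other replicate left out in the same way the count was at most 1 subunit, and at most 1.47% of all genes.

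**Figure D3:**
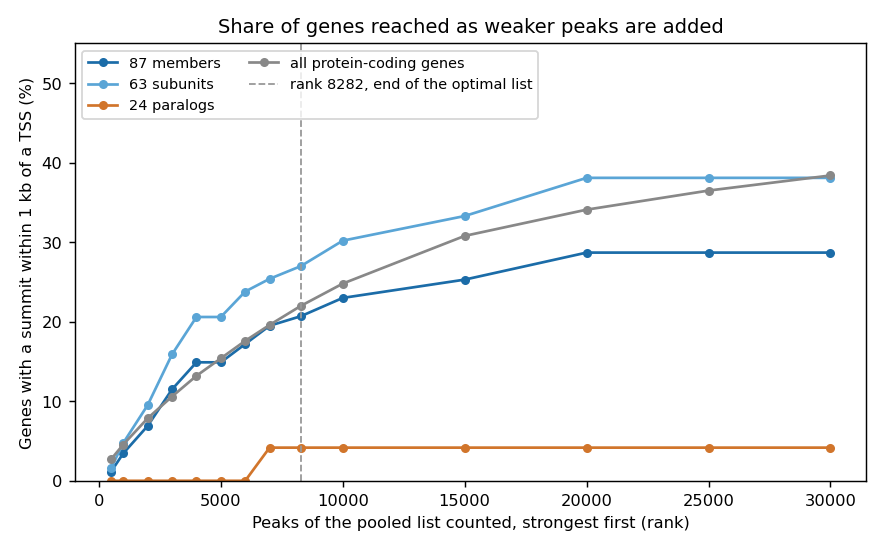
Share of genes with a summit within 1 kb of a TSS (y axis, percent) as peaks of the pooled list are added from the strongest down (x axis, rank), for members, subunits, paralogs and all protein-coding genes. At rank 4000 the shares were 14.9% of members, 20.6% of subunits and 13.2% of all genes, and at rank 30000 they were 28.7%, 38.1% and 38.4%, while paralogs stayed at 4.17% from rank 7000.

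The members' peaks ranged over most of the optimal list, from rank 213 to rank 8239. Peaks were ranked by the authors' score, with rank 1 the highest. The strongest peak of the 18 members had a median rank of 2536, against 3113.5 for the 3078 genes with a summit. It was among the 4141 strongest optimal peaks for 13 of the 18 members and among the weaker ones for 5 (27.8%), against 1187 of the 3078 genes (38.6%). It was among the strongest 828 for 2 members (11.1%), against 560 genes (18.2%). Within 500 bp instead of 1 kb the order of the medians turned, at 3675 for members and 3271 for all genes with a summit.

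Complex I held the strongest member peaks. The peak of ND-ASHI, an accessory subunit of the membrane arm, lay at chrX:6679069-6679587 (dm6) with a score of 1078 and rank 213. Its ranks in replicates 1, 2, 3 and 4 were 241, 315, 161 and 241, with a mean of 240 ± 62.9 (SD, n = 4), the highest ranks of any member in each replicate. Its summit lay 245 bp upstream of ND-ASHI and 277 bp upstream of Fum1, the gene of the citric acid cycle enzyme fumarase, inside an intron of a Fum1 transcript. One peak thus stands at the starts of genes from both pathways.

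ND-MWFE, a small accessory subunit of the membrane arm, came next with a peak at chr2R:13158325-13158685, score 617 and rank 774. Its replicate ranks were 1435, 450, 1177 and 753 (mean 954 ± 438, SD, n = 4). The summit lay 202 bp upstream of ND-MWFE and 19 bp from the start of TppII, a peptidase gene. All 4 replicates placed it among their strongest peaks, although the neighbouring start is much nearer.

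ND-75, a core subunit that holds iron-sulphur clusters of the electron path, had a peak at chrX:8252247-8252641 with score 579 and rank 872. Its replicate ranks were 735, 1259, 1082 and 770 (mean 962 ± 252, SD, n = 4). The summit lay 765 bp upstream of ND-75, in intergenic sequence, and 218 bp from the start of CG1632. These 3 peaks were within or just beyond the strongest 828, and the next member of complex I was weaker.

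ND-SGDH, an accessory subunit, had its strongest peak at chr3L:12139221-12139469 with score 365 and rank 1774. It ranked 1774, 2634 and 1660 in replicates 1, 3 and 4 and had no overlapping peak in replicate 2. The summit lay 835 bp upstream of ND-SGDH in an intron of RhoGAP68F, 467 bp from a start of that gene. A second peak of rank 2548 lay nearer, 82 bp upstream of ND-SGDH, and was ranked 6327, 1652, 3984 and 1690.

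The other 6 members of complex I with a peak ranked lower. ND-42, an accessory subunit, ranked 1822 (mean replicate rank 1966 ± 581, SD, n = 4), with its summit 240 bp upstream and only 11 bp from the start of Cchl. ND-51, the core subunit that takes up electrons from NADH, ranked 2148 (2428 ± 646), 88 bp upstream and 144 bp from CG13994. ND-24, the core partner of ND-51, ranked 2454, and its ranks were 3341, 3120 and 2110 in replicates 1, 3 and 4 with no peak in replicate 2. Its summit lay 101 bp downstream in its own intron and 143 bp from corolla, a gene of meiotic chromosome pairing.

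ND-MNLL ranked 2618 (2758 ± 152), with the summit 879 bp downstream of a start it shares with CG45089, and a second peak of rank 6797 lay 63 bp upstream of its other start. ND-B22 ranked 5710 (8297 ± 3644), with the summit 25 bp upstream of a start and in its own 5′ UTR. It was the only member with a peak that had no other protein-coding TSS within 1 kb of its own. ND-39 ranked 8239 (13196 ± 6625), near the end of the optimal list, and was among the strongest 8282 of replicate 3 only. Its summit lay 936 bp upstream and 510 bp from the start of ZnT77C, a zinc transporter gene, in introns of both.

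The remaining complex I subunits had no optimal summit within 1 kb. Of the core subunits, ND-49 was listed at ranks 9176, 8545 and 9663 in replicates 1, 3 and 4, and ND-23 at 9609 and 10854 in replicates 1 and 4. ND-20 had a best rank of 12345, and ND-30 was in none of the relaxed lists. Of the accessory subunits, ND-B18 was listed in all 4 replicates (8004, 7391, 10576 and 11146) and yet not in the pooled list, and ND-13B was listed in all 4 with a best rank of 10926.

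The best relaxed rank was 8594 for ND-15, 8618 for ND-B17.2, 11674 for ND-ACP, 12092 for ND-AGGG and 12390 for ND-B14.5B. It was 13709 for ND-MLRQ, 14688 for ND-B14, 14802 for ND-18, 15849 for ND-13A, 18821 for ND-B14.7 and 29598 for ND-B16.6. With a 2 kb window ND-B16.6 gained an optimal summit of rank 5738, 1943 bp upstream of it and 62 bp from the start of kdn, the citrate synthase gene. None of the 4 replicate lists held a summit within 1 kb of ND-19, ND-B12, ND-B14.5A, ND-B15, ND-B17, ND-B8 or ND-PDSW. Most of these ranks lie in the weaker part of lists that include background.

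In complex II, which is also the succinate dehydrogenase of the citric acid cycle, the membrane anchor gene SdhC carried the only optimal peak. It lay at chr3R:11208826-11209033 with score 304 and rank 2359, and its replicate ranks were 2155, 2729, 2741 and 2681 (mean 2576 ± 282, SD, n = 4). The summit stood 900 bp downstream of the start, in the gene's own 3′ UTR. A second peak, of rank 4951, lay 318 bp upstream of SdhC and 80 bp from the start of Tctp, and was ranked 4418, 5163, 8473 and 4333.

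SdhA, the flavoprotein that oxidises succinate, was uneven between replicates. It was listed at ranks 2620 and 3523 in replicates 1 and 4 and at 29936 in replicate 3, and was in neither replicate 2 nor the pooled list. SdhB, the iron-sulphur subunit, was listed at 10383, 12350 and 10919 in replicates 1, 3 and 4. SdhD, the second anchor, was listed in all 4 (7600, 11889, 20132 and 12645) and ranked 9422 in the pooled list, below the end of the optimal list. All 4 subunits of complex II thus had a listed summit in replicates 1, 3 and 4, and 2 of 4 had one in replicate 2, in lists that held a summit for 48.9%, 47.4%, 48.8% and 40.3% of all genes in the same order of replicates.

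Complex III had no optimal summit within 1 kb of any of its 9 members. UQCR-14 came closest, at rank 8574 of the pooled list against the 8282 of the optimal list, with ranks 6258, 10621 and 9326 in replicates 1, 3 and 4 and none in replicate 2. UQCR-11 was listed at 9011 and 8863 in replicates 2 and 4, and UQCR-C2, a core subunit of the matrix side, had a best rank of 11810. No replicate listed a summit for UQCR-6.4, UQCR-C1 or UQCR-Q. With a 2 kb window UQCR-C2 gained an optimal summit of rank 6702, 1226 bp upstream of it and 130 bp from the start of Rpn12, a proteasome gene.

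In complex IV, cytochrome c oxidase, the strongest peak was that of COX5B at chr2L:6557431-6557629, with score 218 and rank 3602. Its replicate ranks were 5609, 2509, 9618 and 2953 (mean 5172 ± 3265, SD, n = 4), so that replicate 3 left it outside its strongest 8282. The summit lay 245 bp upstream of COX5B and 53 bp from IFT52, a gene of intraflagellar transport. The same summit lay 1876 bp upstream of the paralog COX5BL.

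COX5A had a peak at chr3R:11819463-11819573 with score 210 and rank 3748, ranked 4758, 5310 and 3204 in replicates 1, 3 and 4 and absent from replicate 2. Its summit lay 83 bp upstream of a start of COX5A, inside an intron of the gene, and 96 bp from glo, which encodes an RNA-binding protein. COX7B had a peak at chr3L:17425273-17425407 with score 141 and rank 5843, ranked 4313, 7535, 6769 and 6819 (mean 6359 ± 1408, SD, n = 4). It lay midway, 129 bp upstream of COX7B and 131 bp from Sec3, an exocyst gene.

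COX7AL2 was the only paralog with an optimal peak. It lay at chr2L:2197297-2197471 with score 121 and rank 6884, ranked 8532, 9712, 7918 and 6026 (mean 8047 ± 1539, SD, n = 4). The summit stood 581 bp downstream of a start, in the gene's 5′ UTR, and a second peak of rank 7625 lay in an intron of the gene. No other protein-coding TSS was nearer to either summit than its own.

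Of the other subunits of complex IV, COX8 was listed at 5918 and 3919 in replicates 1 and 4 and in no other list. COX6B was listed at 10114, 19192 and 6828 and COX7A at 18975, 10995 and 9703 in replicates 1, 3 and 4, and COX4 at 14224 and 17480 in replicates 1 and 3. COX7C was listed in all 4 (8753, 17200, 9334 and 13061) and ranked 17427 in the pooled list. A strong optimal peak of rank 421 lay 1967 bp upstream of COX7C, outside the 1 kb window, and no protein-coding TSS was nearer to it than that of COX7C. All 8 complex IV subunits had a listed summit in replicate 1, 7 in each of replicates 3 and 4, and 3 in replicate 2, where the shares of all genes were 48.9%, 47.4%, 48.8% and 40.3% in the same order of replicates.

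In complex V, the membrane subunit gene ATPsynE had the strongest peak, at chr3R:14327740-14328038 with score 396 and rank 1566. Its replicate ranks were 1517, 2762, 1161 and 1773 (mean 1803 ± 687, SD, n = 4). The summit lay 834 bp downstream of the nearest ATPsynE start, beyond the end of the gene, and 149 bp from the start of spn-B, a gene of meiotic recombination.

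ATPsynCF6, a subunit of the peripheral stalk, had its strongest peak at chr3R:23356957-23357177 with score 236 and rank 3282, ranked 2473, 6151, 2411 and 4286 (mean 3830 ± 1775, SD, n = 4). The summit lay 984 bp upstream, just inside the window, in an intron of Sec13 and 485 bp from a start of that gene. A second peak of rank 5427 lay 102 bp upstream of ATPsynCF6 and was ranked 6382, 3255, 22990 and 6019, so that replicate 3 stood far below the others.

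ATPsynbeta, the catalytic subunit of the F1 head, had a weak peak on arm 4 at chr4:1030864-1031293 with score 132 and rank 6302. Its replicate ranks were 13644, 4687, 11497 and 6268 (mean 9024 ± 4237, SD, n = 4), and replicates 1 and 3 left it outside their strongest 8282. The summit lay 405 bp upstream of ATPsynbeta and 104 bp from CG11076.

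The other subunits of ATP synthase had none. ATPsyngamma, the rotating stalk, was listed at 28597, 14249 and 6882 in replicates 1, 3 and 4, and ATPsyndelta at 18142 and 12471 in replicates 1 and 3. Of the peripheral stalk and membrane part, ATPsynC was listed at 8160, 12166 and 13853 and ATPsynD at 9861, 9682 and 9652 in replicates 1, 3 and 4. ATPsynF had a best rank of 12968 and ATPsynG of 19757, and ATPsynB and ATPsynO were in no replicate list. A 2 kb window added ATPsyndelta (rank 1310, 1644 bp upstream), ATPsynD (6074) and ATPsynC (8113), and each of these summits was nearer to the start of another gene.

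The 23 paralogs without an optimal summit were seldom listed at all. Of the 24, 12 (50%) had no summit in any replicate list, against 13 of 63 subunits (20.6%) and 34.7% of all genes. These were ND-20L, ND-24L, ND-51L2, SdhAL, SdhCL, UQCR-11L, COX4L, COX5BL, COX6AL, COX6CL, ATPsynGL and ATPsynbetaL. SdhBL had the best rank of the others, 13989 in replicate 1. ND-49L, ND-51L1, ND-B14.5AL, UQCR-14L, UQCR-6.4L, COX6AL2, COX7AL, COX7CL, ATPsynCF6L and ATPsynepsilonL had best ranks between 16916 and 25386, in 1 or 2 replicates each.

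**Figure D4:**
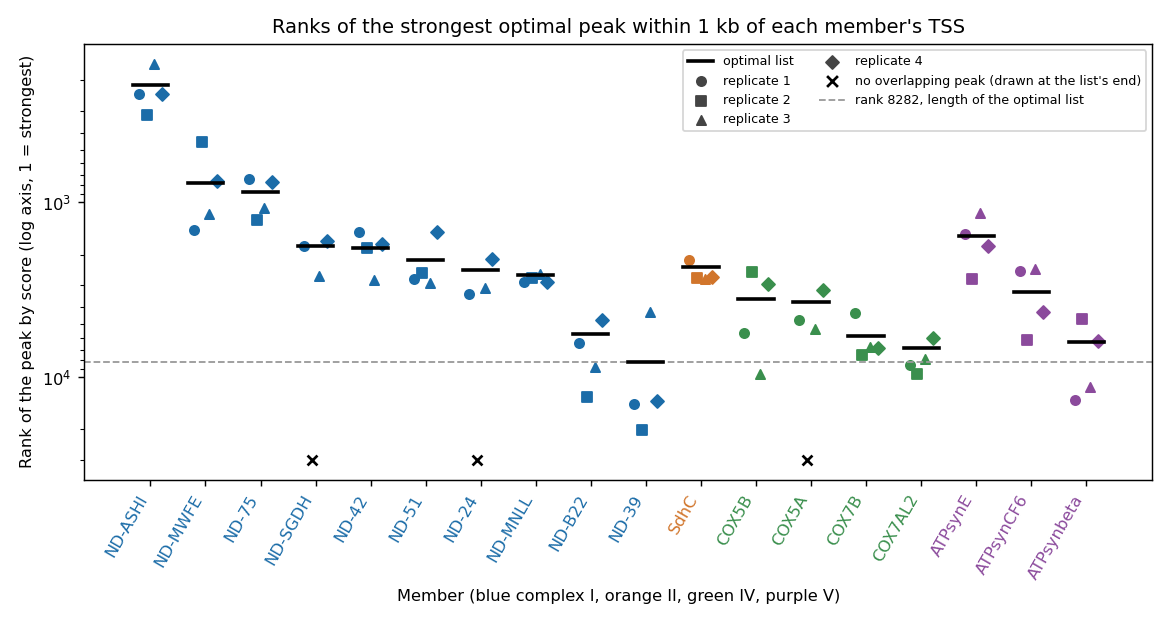
Rank by score (y axis, log scale, rank 1 at the top end) of the strongest optimal peak within 1 kb of each of the 18 members with one (x axis, grouped by complex), in the optimal list (bars) and in each replicate (symbols). ND-ASHI stays between 161 and 315 in all 4 replicates, ND-39 spreads from 4243 to 20232, and crosses mark the 3 peaks that have no overlapping peak in replicate 2.

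In all, 8 subunits stood among the strongest peaks of a replicate without entering the optimal list. They were ND-B18, SdhA, SdhD, UQCR-14, COX6B, COX8, ATPsyngamma and ATPsynC (12.7% of subunits, and 12.7% of all genes had the same pattern). Of these, ND-B18, SdhA and COX8 were among the strongest of at least 2 replicates and not in the pooled list (4.76% of subunits, against 3.91% of all genes). The share of subunits in either pattern was close to that of all genes.

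Many members have the start of another gene close to their own, on either side, and their peaks often lay nearer to that gene's start. Of 87 members, 51 had another protein-coding TSS within 1 kb of their own (58.6%), against 42.8% of all genes. With such a neighbour 17 of 51 members (33.3%) had a summit, against 28.8% of all genes with one. Without it 1 of 36 (2.78%) had a summit, against 16.9% of all genes without one. That single member was ND-B22, and 17 of the 36 were paralogs. Among the 19 subunits without such a neighbour 1 had a summit (5.26%).

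For 9 of the 18 members (50%) no other TSS was nearer to the strongest summit than the member's own, against 75.8% of the 3078 genes with a summit. ND-MNLL is among those 9 through a tie with CG45089. The summit was upstream of the member's TSS in 13 and downstream in 5. Of the 3078 genes with a summit, it was upstream in 2400 and downstream in 678, so most lay upstream there too. The median distance was 325 bp for members, against 219.5 bp for all genes with a summit. The summit lay within 250 bp in 9 of 18 members (50%), against 54.3% of all genes with a summit. By annotation 8 summits stood in introns, 6 in intergenic sequence, 3 in 5′ UTRs and 1 in a 3′ UTR. The same split over all genes is not given here.

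Members are also short genes, with a median length of 1100 bp against 2164 bp for all protein-coding genes. A summit inside the gene was found for 7 members (8.05%), against 14.9% of all genes. The part of gene length and of neighbouring starts in the counts was not tested, and peaks between divergent starts cannot be given to either gene from these lists.

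**Figure D5:**
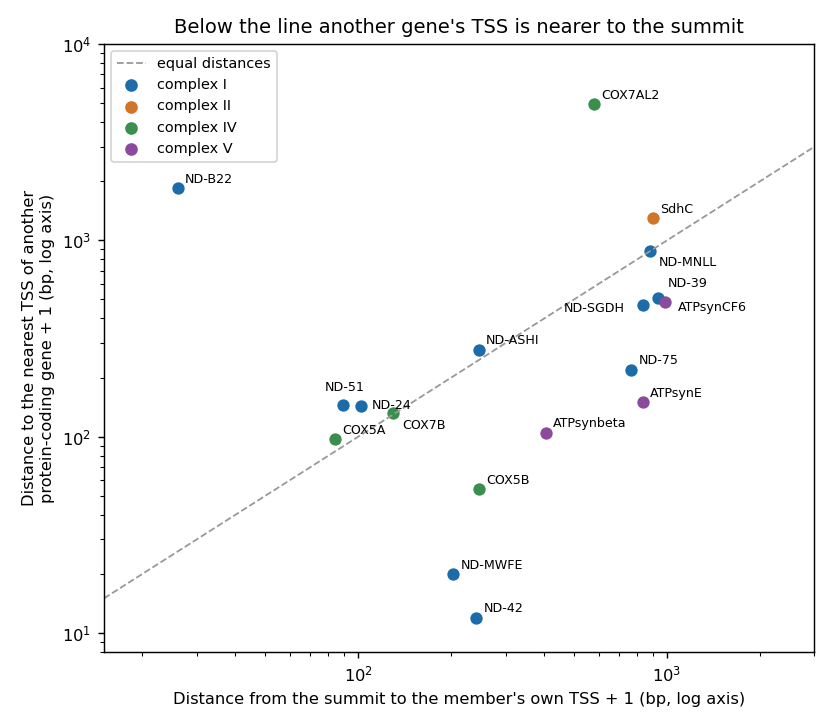
Distance from the strongest summit of each of the 18 members to the nearest TSS of another protein-coding gene (y axis) against the distance to the member's own TSS (x axis), both in bp plus 1 on log scales. Points below the dashed line, 9 of 18, lie nearer to the other gene, with ND-42 (11 bp from Cchl) and ND-MWFE (19 bp from TppII) the nearest.

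Genes that work beside the members were counted in the same way, from lists that were chosen with earlier results of these data known. Among 10 subunits with other symbols and their partners, 5 had a summit (50%), against 22.0% of all genes. The cytochrome c genes Cyt-c-d (rank 166, replicate ranks 131, 237, 128 and 184) and Cyt-c-p (419, with 195, 729, 414 and 474) had strong peaks. Their summits lay 373 and 957 bp downstream of a start, and that of Cyt-c-d was nearer to the start of CG31808. The ATP synthase alpha subunit gene blw followed at rank 1228 (mean replicate rank 1428 ± 474, SD, n = 4), and the complex IV genes levy at 4722 (4867 ± 1851) and cype at 8170 (8724 ± 2557), whose summit was nearer to Ncoa6. Cyt-c1, RFeSP, ox, sun and ND-ACP, the last of which is also a member, had none. With the subunits of other symbols added, 23 genes had a summit in place of 18. The set grew as well, because only 1 of the 10 was already a member. The share of the enlarged set stayed near the 22.0% of all genes, so the higher count is mostly not a higher share.

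Of 13 assembly factors found in the annotation 3 had a summit (23.1%). CIA30, an assembly factor of complex I, had one of the strongest peaks of all, at rank 10 (replicate ranks 18, 4, 12 and 9), 122 bp upstream of CIA30 and nearer to the start of CG7601. Ttc19 (1679) and Cox17 (2452) followed, and the other 10 had none. Of 18 genes of the citric acid cycle and pyruvate dehydrogenase 6 had a summit (33.3%), namely Fum1 (213, the peak shared with ND-ASHI), Idh3g (755), Scsalpha1 (4202), Idh3b (4424), kdn (5738) and Ogdh (7649).

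Of 11 carrier and outer membrane genes only porin had a summit (9.09%), at rank 6606. Of 13 regulators of mitochondrial genes 4 had one (30.8%): Dref (1631, nearer to RpL13), mtSSB (1858), ERR (2004, nearer to Atg18a) and foxo (3338). The other 9, among them srl, Ets97D and TFAM, had none. Over the replicates the mean shares were 45.0% ± 5.77 for subunits with other symbols, 32.7% ± 3.85 for assembly factors and 36.1% ± 7.17 for citric acid cycle genes. They were 20.5% ± 4.55 for carriers and 30.8% ± 6.28 for regulators, against 24.4% ± 2.44 for all genes (SD, n = 4 throughout).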

How the data were processed

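Peak lists on dm6 from 4 biological replicates of 1 group were used. Per the file headers, the authors called peaks on each replicate and on the pooled replicates, and derived the optimal list from the lists of replicates 2, 3 and 4 and the pooled list. The names of the peak caller and the aligner were not given in the sources used here. Columns of the deposited lists hold a score per peak, on a scale not stated, used only for ranks within a list, and −log10 of a q-value, which was 4.26 for every optimal peak. In the deposited files the optimal list equals the 8282 highest scores of the pooled list.

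Genes came from Ensembl release 115 and sequence from the Release 6 genome of RefSeq, read directly because no promoter table was given. A gene had a peak when a summit lay within 1000 bp of any of its transcript starts. Replicate ranks are those of the strongest replicate peak that overlaps the optimal peak by at least 1 bp. No contrast between conditions exists, so lists are described by counts beside all 13968 protein-coding genes, without a test. The alternatives were other windows, starts, peak sets, member sets and replicates.

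Every member is named, with full values for up to 4 of each complex with the strongest peaks. Members and lists were chosen with earlier results of these data known. COX14, COX15, COX16, COX18 and COX19 were not matched in the annotation. Assignment, ranks and motif search were tested on simulated data. Python 3.11.15, NumPy 2.4.6, SciPy 1.17.1 (exact Clopper-Pearson intervals) and Matplotlib 3.10.9 were used.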

Additional observations from a re-analysis of the deposited data

Results flagged for a closer look

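Among 25 groups of 4 replicate values, 4 held a value whose gap to its nearest neighbour exceeded Dixon's critical ratio at 95%. For continuous values chance flags about 1 in 20 groups. That rate does not hold for the 3 shares below, because their other 3 values are tied and a difference of 1 gene is then always picked out. The SdhC peak ranked 2155 in replicate 1, apart from 2729, 2741 and 2681 in the others. The share of complex III genes with a summit was 11.1% in replicate 1, from UQCR-14 alone, and 0% in the other 3. The share of complex I core subunits was 28.6% in replicate 2 and 42.9% in the others, and ND-24 is the core gene missing there. The share of complex I accessory subunits was 25.9% in replicate 1 and 22.2% in the others. That last difference is a count of 7 against 6, and the genes were not the same: replicate 1 had both ND-B22 and ND-B18, replicate 2 had ND-B18, replicate 4 had ND-B22, and replicate 3 had neither but had ND-39.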

How the results depend on the processing

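The count of 18 members stayed within 1.5 times, from 12 to 25, except when each summit was given only to the gene with the nearest TSS, which left 11. The share of all genes changed with the setting too, so a steady count is not a steady result. The count of 25 was 28.7% of members, against 28.0% of all genes at 2 kb and 38.4% in the pooled relaxed list. The 12 members were 13.8% against 14.2%, and the 11 were 12.6% against 17.3%. Leaving out assembly factors removed no member. By complex, the 2 kb window gave 1 gene of complex III (11.1%) and 6 of complex V (40.0%), against 28.0% of all genes. The 4141 strongest peaks and the peaks met by all 4 replicates each gave 2 of complex IV (12.5%), against 13.5% and 14.2% of all genes. The mean share over replicates was 19.2% to 22.6% when 1 replicate was left out, and 13.2% of members, against 14.5% of all genes, with 4141 peaks per replicate. The median rank was 3675 within 500 bp, against 3271 for all genes. At the 18 member summits the share with AGGTCA, the DRE, Motif 1, the E-box, GAGAGAG and the respiratory gene element was 0% each. Over all optimal summits these shares ran from 0.797% to 4.24%, so 0 of 18 says little. Of 50 settings of the mean replicate ranks of 10 named members, 49 stayed within 1 SD. Most of these left out 1 of 4 replicates, which cannot move a mean by 1 SD, so they tested nothing. Only taking the strongest replicate peak within 1 kb could do so, and ATPsynCF6 then moved to 9228. The relaxed lists without each replicate in turn, added after seeing the data, gave 44.8% to 52.1% of members. No paired analysis was possible because there is 1 group. The cause of these changes was not tested.

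The precision is limited by the number of genes in each set, by 4 replicates and by the absence of read counts and of a control sample here. Intervals cover counting error only. The relaxed lists hold a fixed number of peaks, so they show no difference in how many sites were bound, and ranks from lists with background say little below the optimal list's end.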
